A study of Mus musculus with 12 samples.

Results

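The Cyp4 fatty acid hydroxylases examined here were 10 mouse genes, Cyp4a10, Cyp4a12a, Cyp4a12b, Cyp4a14, Cyp4a31, Cyp4a32, Cyp4b1, Cyp4f13, Cyp4f14 and Cyp4v3, taken by Ensembl identifier from a table of 35709 genes. They were measured by RNA-seq in hepatocytes isolated from male C57BL/6J mice aged 8 to 10 weeks. There were 3 samples in each of 4 groups: Alb-R3 mice after CCl4, Alb-Cre mice after CCl4, Alb-R3 mice after oil and Alb-Cre mice after oil. Alb-R3 mice are labelled as lacking Fgfr3, a fibroblast growth factor receptor, in hepatocytes, and Alb-Cre mice, which carry Cre recombinase under the albumin promoter, were the controls. CCl4, a solvent that injures the liver once cytochrome P450 has activated it, was given as 1 intraperitoneal injection of 0.4 mg/g, the oil groups received the olive oil vehicle, and cells were taken at 48 h. The design asks how the transcripts respond to CCl4 in each genotype, how the genotypes differ after each treatment, and whether the CCl4 response depends on genotype.

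Cyp4 enzymes are cytochromes P450 of the endoplasmic reticulum that hydroxylate the methyl end, or omega carbon, of fatty acids. Alcohol and aldehyde dehydrogenases then turn the product into a dicarboxylic acid, which peroxisomes shorten by beta-oxidation. In liver the route takes up part of a fatty acid load, and the same enzymes act on arachidonic acid and leukotrienes. Cyp4a10 and Cyp4a14 are classic target genes of the fatty acid receptor PPARA, while Cyp4a12a is known as a male-biased gene.

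Several members are near copies, and the differences between them set how well reads can be assigned. Cyp4a12a (ENSMUSG00000066071, chr4:115299046-115332815, plus strand of GRCm38) and Cyp4a12b (ENSMUSG00000078597, chr4:115411624-115439034, plus strand) each have a coding sequence of 1527 bases, which differ at 23 positions, an identity of 98.5%. Of all stretches of 31 bases in their transcripts, 62.2% of those of Cyp4a12a and 62.9% of those of Cyp4a12b also occur in another gene. The lines below show coding bases 630 to 689 of both, in exons at chr4:115326628-115326687 and chr4:115432881-115432940, from GENCODE M21. They are shown because this window is dense in the differences that can tell the pair apart, and capitals mark the 4 differing positions.
Cyp4a12a: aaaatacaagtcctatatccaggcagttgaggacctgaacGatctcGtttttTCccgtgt
Cyp4a12b: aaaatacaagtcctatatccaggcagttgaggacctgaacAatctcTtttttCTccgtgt
The run of unchanged bases before the first capital is longer than 31 bases, so stretches of 31 bases within it fit both genes.

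Cyp4a10 (ENSMUSG00000066072, chr4:115518264-115533649), Cyp4a31 (ENSMUSG00000028712, chr4:115563649-115579015) and Cyp4a32 (ENSMUSG00000063929, chr4:115600969-115621602), all on the plus strand, form another set of copies. Their coding sequences of 1530 bases vary at 77 positions, and identity was 97.2% between Cyp4a10 and Cyp4a32, 96.6% between Cyp4a10 and Cyp4a31 and 96.0% between Cyp4a31 and Cyp4a32. Coding bases 200 to 259, at chr4:115519640-115519699, chr4:115565020-115565079 and chr4:115602270-115602329 in that order of genes, hold 9 of these positions, marked in capitals. This window is shown because it is dense in the differences that can tell these copies apart. Cyp4a32 stands apart at most of the marked positions, though over the whole coding sequence it is closer to Cyp4a10 than Cyp4a31 is.
Cyp4a10: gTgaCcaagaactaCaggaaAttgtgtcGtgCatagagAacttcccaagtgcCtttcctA
Cyp4a31: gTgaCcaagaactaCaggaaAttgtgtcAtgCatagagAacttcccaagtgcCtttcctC
Cyp4a32: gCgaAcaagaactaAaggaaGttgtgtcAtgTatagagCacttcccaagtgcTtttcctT
Shared stretches of 31 bases made up 62.8% of the Cyp4a32 transcript, 44.9% of that of Cyp4a10 and 31.95% of that of Cyp4a31. Values of single copies are therefore uncertain, and the sums Cyp4a12a + Cyp4a12b and Cyp4a10 + Cyp4a31 + Cyp4a32 are given beside them. Cyp4a14 (ENSMUSG00000028715, chr4:115486200-115496142, minus strand) lies in the same cluster but shared only 2.0% of its stretches with other genes.

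The remaining members were more distinct. Cyp4b1 (ENSMUSG00000028713, chr4:115624725-115647723, minus strand) lies beside Cyp4a32 on chromosome 4 and shared 11.7% of its stretches. Cyp4f13 (ENSMUSG00000024055, chr17:32924688-32947402) and Cyp4f14 (ENSMUSG00000024292, chr17:32905070-32917342), neighbours on the minus strand of chromosome 17, shared 3.8% and 7.2%. Cyp4v3 (ENSMUSG00000079057, chr8:45304944-45333216, minus strand) shared 7.5%, all with the predicted gene Gm45753. Between the coding sequences of Cyp4f13 and Cyp4f14 the identity was 78.5%.

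Depth ran from 28.0 to 39.6 M (mega) estimated reads per library. The library Alb-R3 CCl4 replicate 1 stood apart, with 32.3% of its normalized counts on mitochondrially encoded genes, against 6.2% to 12.8% in the other 11. Fgfr3 had 477.7, 372.1 and 382.3 normalized counts in Alb-R3 after CCl4 and 950.9, 705.7 and 753.0 in Alb-Cre after CCl4. After oil it had 523.1, 650.5 and 1109 in Alb-R3 and 734.9, 887.6 and 988.1 in Alb-Cre, and the highest of all 12 values, which went against its label, was that of the library labelled Alb-R3 oil replicate 3. Fgfr3 was not called between the genotypes, with log2 differences of -0.96 ± 0.24 (SE) after CCl4 (limma adjusted p = 0.252) and -0.26 ± 0.24 after oil. Of 12 hepatocyte markers 11 were in the table, and together they held 6.2% to 12.4% of each library. Their sum was 6.2% to 12.4% in Alb-R3 after CCl4 and 9.5% to 11.6% in Alb-R3 after oil. For Alb-Cre it was 12.1% to 12.4% after CCl4 and 8.9% to 11.8% after oil.

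All 10 members passed the filter on low values and were detected in every library. Compared per transcript length, as FPKM (fragments scaled by transcript length and library size), Cyp4a14 led in Alb-Cre after oil with 303 ± 127 (SD, n = 3). It was followed there by Cyp4a10 with 243 ± 85.2, Cyp4a12a with 176 ± 121, Cyp4f14 with 134 ± 47.2, Cyp4v3 with 81.0 ± 30.0 and Cyp4f13 with 73.8 ± 1.4 FPKM. Cyp4a32 with 17.4 ± 5.9, Cyp4a31 with 14.7 ± 8.8, Cyp4a12b with 7.5 ± 2.8 and Cyp4b1 with 4.9 ± 0.4 FPKM were the low members. Neighbours in this order overlapped in 8 of 9 pairs, the exception being the step between Cyp4f13 and Cyp4a32.

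In Alb-R3 after oil the order was Cyp4f14 with 151 ± 28.2 FPKM (SD, n = 3), Cyp4a14 with 137 ± 90.9, Cyp4a12a with 90.2 ± 35.0, Cyp4f13 with 76.4 ± 6.0, Cyp4a10 with 72.2 ± 23.0 and Cyp4v3 with 67.2 ± 12.3. The low members were again Cyp4a32 with 25.6 ± 4.1, Cyp4a31 with 9.9 ± 1.1, Cyp4a12b with 5.2 ± 2.5 and Cyp4b1 with 2.0 ± 0.6 FPKM. Among the first 6, each overlapped its neighbour.

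After CCl4, Cyp4a14 led in both genotypes, with 122 ± 62.5 FPKM in Alb-R3 and 295 ± 398 FPKM in Alb-Cre (SD, n = 3 each). Cyp4a12a had rank 8 in Alb-R3 after CCl4, at 7.0 ± 8.6 FPKM, and rank 5 in Alb-Cre after CCl4, at 65.0 ± 45.3 FPKM. Cyp4a12b was last in both, at 0.25 ± 0.20 FPKM in Alb-R3 after CCl4 and 5.4 ± 4.2 FPKM in Alb-Cre after CCl4. These groups also had wide overlaps, with 7 of 9 neighbouring pairs overlapping in Alb-R3 and 6 of 9 in Alb-Cre.

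**Figure D1:**
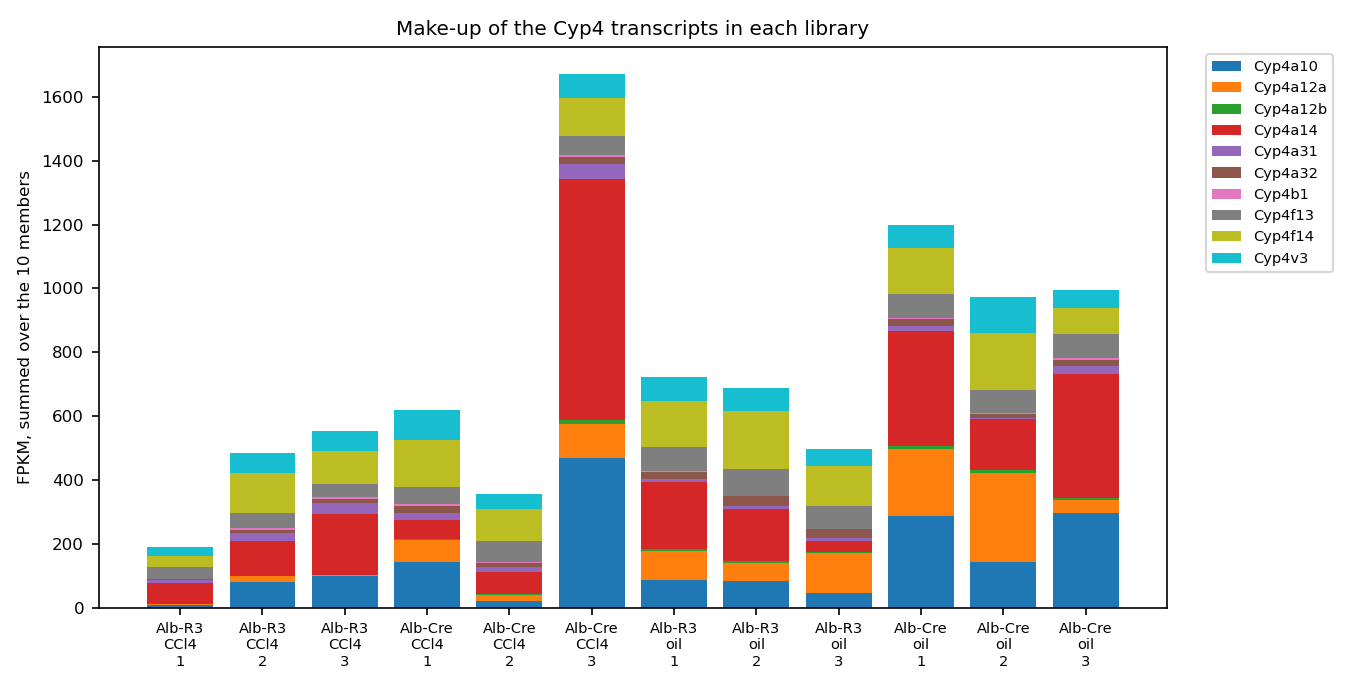
FPKM of the 10 members stacked for each library, with 3 libraries a group (Alb-R3 CCl4, Alb-Cre CCl4, Alb-R3 oil, Alb-Cre oil from left to right). The stacks run from 190 FPKM in Alb-R3 CCl4 replicate 1 to 1673 FPKM in Alb-Cre CCl4 replicate 3, where Cyp4a10 and Cyp4a14 take up most of the height.

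Summed over the 10 members, FPKM lay between 190 and 554 in Alb-R3 after CCl4, between 355 and 1673 in Alb-Cre after CCl4, between 498 and 723 in Alb-R3 after oil and between 973 and 1198 in Alb-Cre after oil. The Alb-R3 and Alb-Cre libraries did not overlap after oil and did overlap after CCl4, and this sum was not tested. The 6 Cyp4a genes supplied 46.3% to 61.6% of it in Alb-R3 after CCl4, 39.1% to 84.4% in Alb-Cre after CCl4, 49.2% to 58.8% in Alb-R3 after oil and 62.2% to 77.9% in Alb-Cre after oil.

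Replicates of a group differed far more for some members than for others. The residual SD on the log2 scale, pooled over the 4 groups, was 1.42 for Cyp4a10, 1.37 for Cyp4a12a and 1.29 for Cyp4a14, against a median of 0.25 over the 5558 genes with a geometric mean of at least 500 normalized counts. Cyp4f13, at 0.15, was below that median. Between lay Cyp4a12b at 0.88, Cyp4a31 at 0.77, Cyp4a32 at 0.76, Cyp4f14 at 0.53, Cyp4b1 at 0.48 and Cyp4v3 at 0.42. A given fold change was thus easiest to detect for Cyp4f13 and hardest for Cyp4a10.

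**Figure D2:**
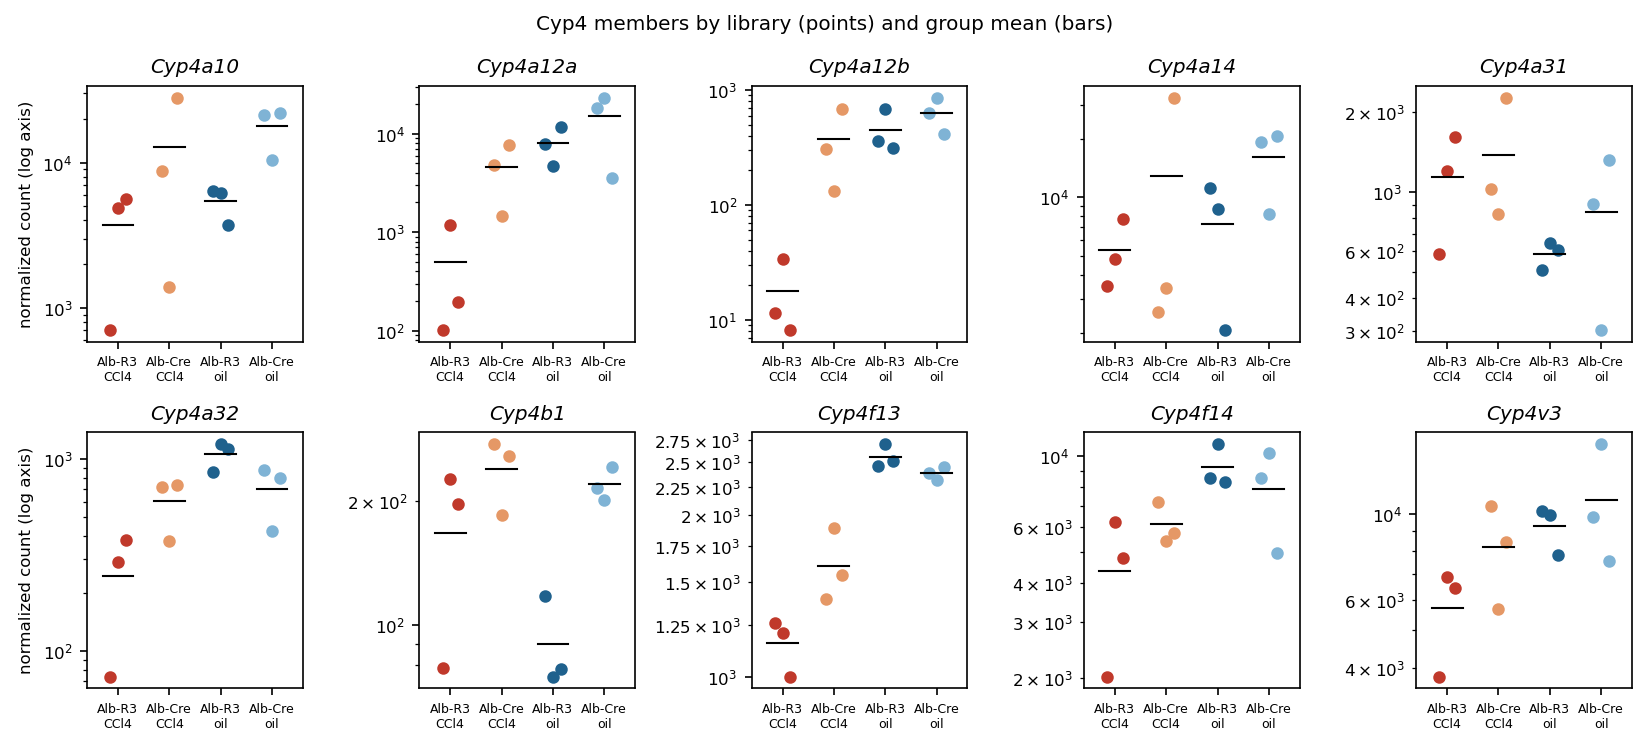
Normalized counts of the 10 members on a log axis, 1 panel a gene, with points for libraries and bars for the mean of 3 in each group. Cyp4a12b sits between 8.12 and 33.69 in Alb-R3 after CCl4, below every other library, while the points of Cyp4a10 and Cyp4a14 spread widely within groups.

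In Alb-R3 hepatocytes, 5 of the 10 members fell after CCl4 relative to oil and none rose (limma on log2(normalized count + 1), adjusted p under 0.05). Cyp4a12a and Cyp4a12b fell most, followed by Cyp4a32, Cyp4f14 and Cyp4f13. Over all 20244 genes tested, 6.92% were called lower and 10.9% higher in this comparison. The median log2 fold change was -1.06 for the 10 members, -0.66 for the 11 tested hepatocyte markers and 0.00 for all tested genes. Summed, those markers held 6.2%, 12.2% and 12.4% of normalized counts in Alb-R3 after CCl4, against 9.5% to 11.6% in Alb-R3 after oil. Groups did not overlap for 6 members, all lower after CCl4, against 15.5% of all genes.

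Cyp4a12a, a mouse arachidonic acid omega-hydroxylase that makes the vasoactive lipid 20-HETE, had 100.9, 1192 and 195.4 normalized counts in Alb-R3 after CCl4, against 7769, 4750 and 11740 in Alb-R3 after oil. Its copy Cyp4a12b had 11.56, 33.69 and 8.12 after CCl4, against 360.0, 686.0 and 313.8 after oil. Both genes were lower in every CCl4 library than in every oil library, and replicate 2 was the highest of the CCl4 libraries for each. The log2 fold change was -4.72 ± 0.88 (SE, n = 3 each) for Cyp4a12a (limma adjusted p = 0.0029) and -4.75 ± 0.58 for Cyp4a12b (limma adjusted p = 1.4e-04).

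The pair summed had 112.5, 1226 and 203.5 normalized counts in Alb-R3 after CCl4, against 8129, 5436 and 12054 in Alb-R3 after oil. That was a log2 fold change of -4.73 ± 0.85 (limma adjusted p = 0.0023), or 26.6-fold lower. Without Alb-R3 CCl4 replicate 1 it was -4.02 (adjusted p = 0.0061), and without Alb-R3 CCl4 replicate 2 it was -5.73 (adjusted p = 4.7e-04). The Cyp4a12b values in Alb-R3 after CCl4 correspond to 11.2, 46.0 and 10.1 estimated reads, so counting error weighs most on Cyp4a12b, while the spread between libraries was wider for Cyp4a12a.

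Cyp4a32 had 73.49, 290.4 and 377.9 normalized counts in Alb-R3 after CCl4, against 859.9, 1198 and 1133 in Alb-R3 after oil. The groups did not overlap, and replicate 1 was the lowest of the CCl4 libraries. The log2 fold change was -2.38 ± 0.50 (limma adjusted p = 0.0056), and it was -1.67 (adjusted p = 0.0044) without that library. Its near copy Cyp4a31 had 585.5, 1206 and 1621 after CCl4, against 510.6, 646.8 and 608.7 after oil, a log2 fold change of 0.84 ± 0.51 (limma adjusted p = 0.292). The ratio of Cyp4a32 to Cyp4a31 in FPKM was 0.18 to 0.34 in Alb-R3 after CCl4, against 2.41 to 2.67 in Alb-R3 after oil, with no overlap. In Alb-Cre this ratio was 0.463 to 0.998 after CCl4 and 0.87 to 1.99 after oil, which did overlap. Since these copies share reads, the ratio rests on how the authors' quantification divided them.

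Cyp4f13, of the subfamily that also hydroxylates leukotrienes, had 1259, 1206 and 1002 normalized counts in Alb-R3 after CCl4, against 2461, 2703 and 2514 in Alb-R3 after oil. All CCl4 libraries were well below all oil libraries, and replicates lay close together. The log2 fold change was -1.15 ± 0.15 (limma adjusted p = 2.0e-04).

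Cyp4f14, the leukotriene B4 omega-hydroxylase described in mice, had 2020, 6216 and 4784 normalized counts in Alb-R3 after CCl4, against 8530, 10930 and 8309 in Alb-R3 after oil. The groups did not overlap, and Alb-R3 CCl4 replicate 1 was far below the others. Its log2 fold change of -1.23 ± 0.36 (limma adjusted p = 0.032) was -0.75 without that library and no longer called (adjusted p = 0.077). The call was also lost without Alb-R3 oil replicate 1 (adjusted p = 0.075), replicate 2 (adjusted p = 0.110) or the library labelled replicate 3 (adjusted p = 0.060). Other settings also ended it: quantile normalization, a total without mitochondrial genes, FPKM, no trend, no filter (adjusted p = 0.143, the highest), only the 6 samples compared, and a threshold of 0.01.

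The other 4 members did not pass the test in Alb-R3. Cyp4a10 had 703.2, 4881 and 5664 normalized counts after CCl4, against 6425, 6189 and 3700 after oil, a log2 fold change of -0.97 ± 0.92 (limma adjusted p = 0.515). It was low in replicate 1 alone, and without that library the log2 fold change was -0.01. Cyp4a14 had 3484, 4821 and 7715 after CCl4, against 11220, 8683 and 2070 after oil, and its log2 fold change of -0.21 ± 0.83 (limma adjusted p = 0.898) turned to 0.06 under quantile normalization, 0.20 without mitochondrial genes in the total and 0.05 on FPKM. In the last pair of settings the median of all genes moved too, to 0.37 and 0.23, so relative to it Cyp4a14 stayed lower. The sum of Cyp4a10, Cyp4a31 and Cyp4a32 changed by -0.79 ± 0.76 (limma adjusted p = 0.529).

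Cyp4v3, the counterpart of a human fatty acid hydroxylase gene linked to a crystalline eye disease, had 3800, 6871 and 6434 normalized counts in Alb-R3 after CCl4, against 10150, 9921 and 7841 in Alb-R3 after oil. The groups did not overlap, but the log2 fold change of -0.74 ± 0.30 missed the threshold (limma adjusted p = 0.111). Cyp4b1, best known from the lung for activating foreign compounds, had 78.41, 226.3 and 196.4 after CCl4, against 117.1, 74.80 and 78.05 after oil, a log2 fold change of 0.78 ± 0.35 (limma adjusted p = 0.145). Here too replicate 1 differed from the other CCl4 libraries, and without it Cyp4b1 was higher after CCl4 by 1.25 (limma adjusted p = 0.0044). Without that library 5 members were thus still called, 4 lower (Cyp4a12a, Cyp4a12b, Cyp4a32 and Cyp4f13) and 1 higher. Cyp4b1 was also called higher without mitochondrial genes in the total (adjusted p = 0.023), where the median of all genes moved to 0.37 too. With library weights it was called higher as well (adjusted p = 0.0070), and the weights called Cyp4a31 higher too (adjusted p = 0.049). In the other settings no member was called higher.

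**Figure D3:**
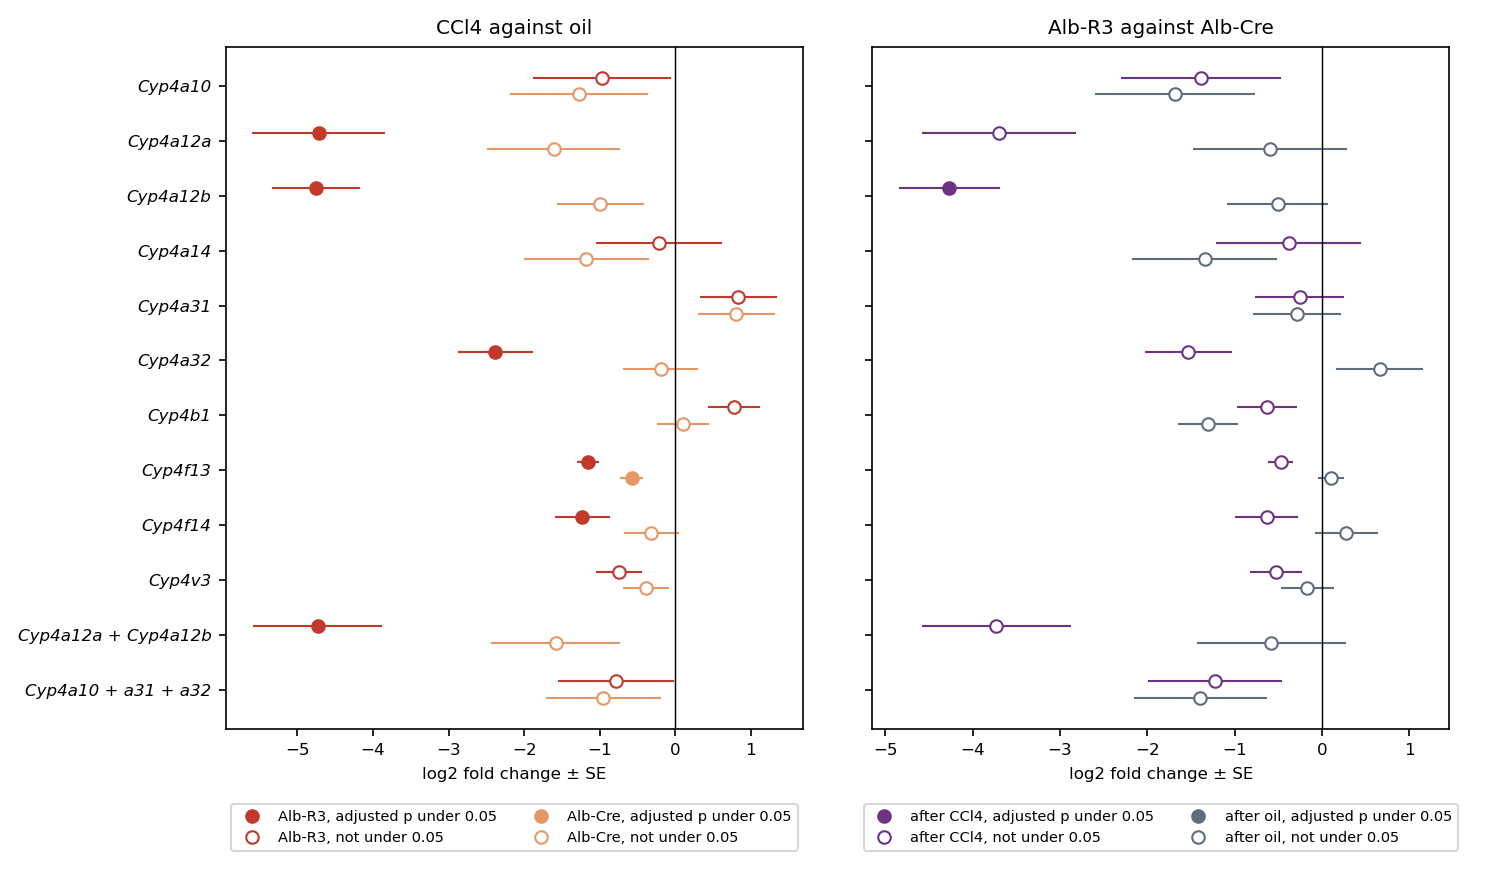
Log2 fold changes with standard errors for the 10 members and both sums of copies, from 3 samples a group, with filled points for adjusted p under 0.05. On the left, CCl4 against oil: in Alb-R3 the Cyp4a12 genes lie near -4.7, and in Alb-Cre only Cyp4f13 is filled. On the right, Alb-R3 against Alb-Cre: after CCl4 only Cyp4a12b is filled, and after oil none is.

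In Alb-Cre hepatocytes, 1 member, Cyp4f13, fell after CCl4 relative to oil and none rose, against 0.988% of all tested genes called lower, 3.46% called higher and 4.45% in either direction. Cyp4f13 had 1398, 1886 and 1545 normalized counts in Alb-Cre after CCl4, against 2389, 2316 and 2452 in Alb-Cre after oil. The groups did not overlap, as for no other member here, while 10.4% of all genes were lower without overlap. The log2 fold change was -0.58 ± 0.15 (limma adjusted p = 0.043). The call was kept in 3 of 12 fits that left out a library, those without Alb-R3 CCl4 replicate 1, Alb-R3 CCl4 replicate 3 or Alb-Cre CCl4 replicate 2. It was lost in the other 9, with adjusted p up to 0.157 without Alb-Cre CCl4 replicate 1.

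Cyp4a12a had 67.18, 18.61 and 109.2 FPKM in Alb-Cre after CCl4, against 210.6, 276.5 and 41.22 FPKM in Alb-Cre after oil. Cyp4a12b had 308.4, 132.4 and 689.1 normalized counts after CCl4, against 628.5, 860.3 and 410.8 after oil. Both overlapped between treatments, as replicate 3 was the highest CCl4 library and the lowest oil library. For the summed pair the log2 fold change was -1.58 ± 0.85 (limma adjusted p = 0.387), and it ran from -0.90 without Alb-Cre CCl4 replicate 2 to -2.39 without Alb-Cre oil replicate 3.

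In Alb-Cre after CCl4, the members known as PPARA targets spread most of all members. Cyp4a10 had 8727, 1402 and 28030 normalized counts in Alb-Cre after CCl4, against 21220, 10420 and 21840 in Alb-Cre after oil. Cyp4a14 had 2562, 3412 and 32640 after CCl4, against 19190, 8238 and 20810 after oil. Alb-Cre CCl4 replicate 3 held the highest value of the 12 libraries for both genes, and other CCl4 libraries were the lowest of the 6. Neither passed, with log2 fold changes of -1.27 ± 0.92 (limma adjusted p = 0.545) and -1.18 ± 0.83 (limma adjusted p = 0.536), and without replicate 3 that of Cyp4a14 was -2.33 (adjusted p = 0.075). The summed Cyp4a10, Cyp4a31 and Cyp4a32 changed by -0.95 ± 0.76 (limma adjusted p = 0.601).

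Among the remaining members in Alb-Cre, Cyp4a31 had 1031, 829.3 and 2271 normalized counts after CCl4 and 901.6, 303.1 and 1321 after oil. Cyp4a32 had 717.8, 374.5 and 734.5 after CCl4 and 873.4, 420.5 and 799.8 after oil. Both overlapped between treatments, with log2 fold changes of 0.81 ± 0.51 (limma adjusted p = 0.470) for Cyp4a31 and -0.19 ± 0.50 (limma adjusted p = 0.903) for Cyp4a32. The value of Cyp4a32 turned to 0.01 without mitochondrial genes in the total and to 0.04 on FPKM. In these settings the median of all genes moved too, to 0.20 and 0.22. Cyp4b1 had 274.2, 184.1 and 256.0 after CCl4 and 215.2, 201.2 and 241.1 after oil, a log2 fold change of 0.10 ± 0.35 that turned to -0.04 under quantile normalization.

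Cyp4f14 had 7203, 5425 and 5722 normalized counts in Alb-Cre after CCl4 and 8539, 10260 and 4941 in Alb-Cre after oil. Cyp4v3 had 10470, 5663 and 8435 after CCl4 and 9793, 15100 and 7567 after oil. These groups overlapped as well, and the log2 fold changes were -0.32 ± 0.36 for Cyp4f14 (limma adjusted p = 0.738) and -0.39 ± 0.30 for Cyp4v3 (limma adjusted p = 0.587). The median over the 10 members was -0.48, beside -0.23 over the 11 tested hepatocyte markers and 0.02 over all tested genes.

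After CCl4, all 10 members had lower mean log2 values in Alb-R3 than in Alb-Cre, and 1, Cyp4a12b, passed the test, against 0.0889% of all tested genes called lower and 0.0840% called higher. Its values of 11.56, 33.69 and 8.12 normalized counts in Alb-R3 stood below 308.4, 132.4 and 689.1 in Alb-Cre. This was a log2 difference of -4.27 ± 0.58 (limma adjusted p = 0.0083), or 19.3-fold lower, and it stayed called without any 1 library, between -3.68 and -4.87. It was no longer called when only these 6 libraries were fitted (adjusted p = 0.169) or when no filter was applied (adjusted p = 0.121).

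Cyp4a12a, with 1.17, 16.96 and 2.96 FPKM in Alb-R3 after CCl4 and 67.18, 18.61 and 109.2 FPKM in Alb-Cre after CCl4, did not overlap between genotypes. Its log2 difference of -3.70 ± 0.88 missed the threshold (limma adjusted p = 0.192), as did the summed pair at -3.73 ± 0.85 (limma adjusted p = 0.169). Without Alb-R3 CCl4 replicate 2, the highest of its group, both passed, at -4.73 for Cyp4a12a (adjusted p = 0.045) and -4.73 for the sum (adjusted p = 0.036). Cyp4f13 was the third member without overlap, at -0.47 ± 0.15 (limma adjusted p = 0.392), and 5.86% of all genes were lower without overlap.

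Differences between Alb-R3 and Alb-Cre after CCl4 for the other members lay between -1.53 ± 0.50 for Cyp4a32 (limma adjusted p = 0.419) and -0.25 ± 0.51 for Cyp4a31 (limma adjusted p = 0.944). Cyp4a10 differed by -1.38 ± 0.92, Cyp4a14 by -0.38 ± 0.83, Cyp4b1 by -0.63 ± 0.35, Cyp4f14 by -0.63 ± 0.36 and Cyp4v3 by -0.52 ± 0.30. None passed. Cyp4a14 turned to 0.78 without Alb-Cre CCl4 replicate 3, and Cyp4a31 turned to 0.18 without it and to 0.16 without Alb-R3 CCl4 replicate 1. The sum of Cyp4a10, Cyp4a31 and Cyp4a32 differed by -1.22 ± 0.76 (limma adjusted p = 0.749). Over the 11 tested hepatocyte markers the median difference was -0.41.

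After oil, 0 of 10 members passed between Alb-R3 and Alb-Cre with limma, 1 had an unadjusted p under 0.05, as had 6.49% of all tested genes. Of all tested genes 0.109% were called lower, 0.0988% higher and 0.207% in either direction. That member was Cyp4b1, with 117.1, 74.80 and 78.05 normalized counts in Alb-R3 and 215.2, 201.2 and 241.1 in Alb-Cre. The groups did not overlap, and the log2 difference was -1.30 ± 0.35 (limma adjusted p = 0.234). It passed without Alb-R3 CCl4 replicate 1, a library of neither group that enters through the shared estimate of spread (adjusted p = 0.021), and with library weights (adjusted p = 0.013).

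Cyp4a10 also did not overlap after oil, with 6425, 6189 and 3700 normalized counts in Alb-R3 and 21220, 10420 and 21840 in Alb-Cre. Its log2 difference was -1.68 ± 0.92 (limma adjusted p = 0.880), and that of the sum of Cyp4a10, Cyp4a31 and Cyp4a32, which did not overlap either, was -1.39 ± 0.76 (limma adjusted p = 0.883). In all, 2 members were lower and 1, Cyp4f13, higher without overlap, against 5.63% and 5.66% of all genes. Cyp4f13 had 2461, 2703 and 2514 in Alb-R3 and 2389, 2316 and 2452 in Alb-Cre, a log2 difference of 0.10 ± 0.15.

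The rest overlapped after oil, with log2 differences between Alb-R3 and Alb-Cre of -1.34 ± 0.83 for Cyp4a14, -0.59 ± 0.88 for Cyp4a12a, -0.51 ± 0.58 for Cyp4a12b, -0.28 ± 0.51 for Cyp4a31, -0.17 ± 0.30 for Cyp4v3, 0.28 ± 0.36 for Cyp4f14 and 0.66 ± 0.50 for Cyp4a32. The Cyp4a12 pair summed differed by -0.58 ± 0.85 (limma adjusted p = 1). When the library with the Fgfr3 value against its label (labelled Alb-R3 oil replicate 3) was left out, 0 members passed as well, and Cyp4a14 differed by -0.59. Leaving out 1 Alb-Cre oil library turned Cyp4v3 to 0.10 (replicate 2), Cyp4a31 to 0.16 and Cyp4f14 to -0.03 (both replicate 3).

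Whether the CCl4 response depended on genotype was tested as an interaction, the log2 fold change in Alb-R3 minus that in Alb-Cre. No member passed, and neither did any of the 20244 genes (0%) with limma. At an unadjusted p under 0.05 there were 4 members, all negative, beside 7.49% of all tested genes in either direction. They were Cyp4a12b at -3.76 ± 0.82 (limma adjusted p = 0.364), Cyp4a12a at -3.11 ± 1.24 (limma adjusted p = 0.575), Cyp4a32 at -2.19 ± 0.70 (limma adjusted p = 0.479) and Cyp4f13 at -0.57 ± 0.21 (limma adjusted p = 0.535). The summed Cyp4a12 pair gave -3.15 ± 1.21 (limma adjusted p = 0.556). In no fit tried did a member pass, and over all genes 6 passed without the trend, 46 with library weights and 17 without a filter. A fall called in Alb-R3 and not in Alb-Cre is therefore not shown to differ between them.

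Positive interaction values were those of Cyp4a14 at 0.96 ± 1.18, Cyp4b1 at 0.68 ± 0.49, Cyp4a10 at 0.30 ± 1.30 and Cyp4a31 at 0.03 ± 0.72. Cyp4f14 at -0.91 ± 0.51 and Cyp4v3 at -0.36 ± 0.43 completed the set, and the sum of Cyp4a10, Cyp4a31 and Cyp4a32 gave 0.17 ± 1.08.

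Another 11 genes of the table carry a Cyp4 symbol, of which 6 passed the filter. Cyp4f15 (chr17:32685627-32703352) had 1395, 2080 and 1848 normalized counts in Alb-R3 after CCl4, against 4381, 4839 and 4685 in Alb-R3 after oil. It had 3152, 2674 and 2921 in Alb-Cre after CCl4, against 4085, 3677 and 4546 in Alb-Cre after oil. Neither genotype overlapped between treatments, and the log2 fold change was -1.40 ± 0.17 in Alb-R3 (limma adjusted p = 1.0e-04) and -0.49 ± 0.17 in Alb-Cre (limma adjusted p = 0.130). The Alb-Cre value was called with library weights (adjusted p = 0.016) and without Alb-R3 CCl4 replicate 1 (adjusted p = 0.040).

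Cyp4f16 (chr17:32536558-32551798) went the other way. It had 239.0, 233.0 and 298.1 normalized counts in Alb-R3 after CCl4, against 24.16, 37.69 and 74.73 in Alb-R3 after oil, and 164.0, 222.4 and 110.6 in Alb-Cre after CCl4, against 51.52, 46.31 and 29.86 in Alb-Cre after oil. It rose by 2.61 ± 0.39 in Alb-R3 (limma adjusted p = 6.1e-04) and by 1.92 ± 0.39 in Alb-Cre (limma adjusted p = 0.011), the second call being lost without Alb-Cre CCl4 replicate 2 (adjusted p = 0.067) or Alb-Cre oil replicate 3 (adjusted p = 0.051), with no filter (adjusted p = 0.065) and at a threshold of 0.01.

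Cyp4f18, which inactivates leukotriene B4 in mouse neutrophils, had 51.58 normalized counts in Alb-R3 CCl4 replicate 1 and at most 5.61 in the other 11 libraries. Cyp4f17 and Cyp4f39 complete the genes with a mean of at least 10 in a group. In Alb-R3 after CCl4 their log2 fold changes were -0.65 ± 0.22 (limma adjusted p = 0.054) for Cyp4f17 and -0.58 ± 0.89 (limma adjusted p = 0.708) for Cyp4f39.

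Genes acting with the Cyp4 enzymes were followed through lists, whose counts stand beside the 10.9% of all tested genes called higher and 6.92% called lower in Alb-R3 after CCl4, and 3.46% and 0.988% in Alb-Cre after CCl4. Of 15 omega oxidation partners, 0 rose and 5 fell in Alb-R3 after CCl4, with a median log2 fold change of -0.68. The largest falls were those of Acsl1, which activates fatty acids to acyl-CoA, at -1.31 ± 0.39 (limma adjusted p = 0.033), the fatty acid transporter Slc27a2 at -1.11 ± 0.27 (limma adjusted p = 0.013) and mitochondrial aldehyde dehydrogenase Aldh2 at -0.98 ± 0.31 (limma adjusted p = 0.046). None was called in Alb-Cre, where the median was -0.25. For comparison, the 11 tested hepatocyte markers had a median of -0.66 in Alb-R3 and -0.23 in Alb-Cre after CCl4. The count of 5 omega oxidation partners fell to 3 without Alb-Cre oil replicate 1 or 2, to 2 without Alb-Cre CCl4 replicate 3 or the library labelled Alb-R3 oil replicate 3, to 1 without Alb-R3 CCl4 replicate 1 or Alb-R3 oil replicate 1, and to 0 without Alb-R3 oil replicate 2. Under quantile normalization 0 were called, and without mitochondrial genes in the total 1 was, which was higher.

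Of 19 tested genes of peroxisomal beta-oxidation, 0 rose and 5 fell in Alb-R3 after CCl4, with a median of -0.68. Acaa1b, a peroxisomal thiolase, fell by 1.82 ± 0.57 on the log2 scale (limma adjusted p = 0.044), the oxidase Acox3 by 1.12 ± 0.20 (limma adjusted p = 0.0022) and the thiolase Acaa1a by 1.09 ± 0.18 (limma adjusted p = 0.0015). In Alb-Cre 1 fell, Acaa1a, by 0.71 ± 0.18 (limma adjusted p = 0.046), and the median was -0.38. The Alb-R3 count fell to 2 without Alb-R3 CCl4 replicate 1, Alb-R3 oil replicate 1 or Alb-R3 oil replicate 2, and the Alb-Cre count was 0 in 9 of the fits without 1 library and 2 without Alb-Cre oil replicate 2. Quantile normalization gave 3 calls in Alb-R3 and 0 in Alb-Cre, and the total without mitochondrial genes gave 2 and 0.

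For PPARA, its partners and its other target genes, 2 of 26 rose and 1 fell in Alb-R3 after CCl4, smaller shares than those of all tested genes. Ppard, a related fatty acid receptor, rose by 1.64 ± 0.39 (limma adjusted p = 0.011), the lipid droplet gene Cidec rose by 1.33 ± 0.40 (limma adjusted p = 0.036) and Pparg, another receptor of the family, fell by 1.49 ± 0.43 (limma adjusted p = 0.029). In Alb-Cre, Ppard rose by 1.57 ± 0.39 (limma adjusted p = 0.035) and Pparg fell by 2.04 ± 0.43 (limma adjusted p = 0.014). Ppara itself, named after its values were seen, changed by -0.67 ± 0.44 in Alb-R3 (limma adjusted p = 0.337). The list's median was -0.29 in Alb-R3 and 0.02 in Alb-Cre, and the Alb-R3 count of 3 became 1 without Alb-R3 CCl4 replicate 1 or Alb-R3 oil replicate 1 and 0 without Alb-R3 oil replicate 2. The Alb-Cre count of 2 became 1 without Alb-Cre CCl4 replicate 1 or 2 or Alb-Cre oil replicate 2 or 3, and 0 without Alb-Cre oil replicate 1. Under quantile normalization it was 1.

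Among 16 tested partners in arachidonic acid and leukotriene metabolism, 3 rose and 4 fell in Alb-R3 after CCl4. The risers were Pla2g4a, which frees arachidonic acid from membranes, at 3.52 ± 0.72 (limma adjusted p = 0.0052), Alox5ap, which presents it for leukotriene synthesis, at 2.60 ± 0.74 (limma adjusted p = 0.027), and the cyclooxygenase Ptgs1 at 1.81 ± 0.31 (limma adjusted p = 0.0016). Pla2g4a had only 40.08, 7.33 and 18.43 normalized counts in Alb-R3 after CCl4, against 0, 0 and 3.45 in Alb-R3 after oil. For Alox5ap these were 170.2, 22.71 and 20.84, against 3.28, 7.93 and 9.46. All 3 risers were highest in Alb-R3 CCl4 replicate 1. The epoxygenases Cyp2c54 and Cyp2c29 fell by 2.67 ± 0.78 and 2.12 ± 0.69 (limma adjusted p = 0.032 and 0.049), and the epoxide hydrolase Ephx2 fell by 1.27 ± 0.27 (limma adjusted p = 0.0062). None was called in Alb-Cre, and 1 was without Alb-R3 CCl4 replicate 1. In Alb-R3 the count of 7 became 4 without Alb-R3 CCl4 replicate 1 or the library labelled Alb-R3 oil replicate 3, 3 without Alb-R3 oil replicate 1 or 2 and 3 under quantile normalization.

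Because Cyp4a12a is male-biased in mouse liver, lists of sex-biased liver genes were followed too, in these male samples. Of 18 male-biased genes, 0 rose and 10 fell in Alb-R3 after CCl4, with a median of -2.12. Susd4 fell by 4.80 ± 0.52 (limma adjusted p = 5.4e-05), the steroid dehydrogenase gene Hsd3b5 by 4.06 ± 0.87 (limma adjusted p = 0.0064), and the fatty acid elongase Elovl3 changed by -4.05 ± 1.22 (limma adjusted p = 0.036). Leaving out 1 library gave 7 to 13 calls. In Alb-Cre 1 fell, Mup1, which encodes a major urinary protein, at -4.37 ± 1.11 (limma adjusted p = 0.041), and the median was -0.63. That count became 4 without Alb-R3 CCl4 replicate 1, 2 without Alb-Cre CCl4 replicate 1 and 0 without Alb-Cre CCl4 replicate 2 or 3, any Alb-R3 oil library or Alb-Cre oil replicate 1 or 2, and also 0 under quantile normalization.

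Of 17 tested female-biased genes, 2 rose and 0 fell in Alb-R3 after CCl4, with a median of 1.0097. Prom1, also a marker of bile duct and progenitor cells, rose by 6.92 ± 0.72 (limma adjusted p = 3.6e-05), and Cyp3a44, a P450 of the liver, rose by 4.40 ± 0.73 (limma adjusted p = 0.0013). In Alb-Cre, Prom1 rose by 3.75 ± 0.72 (limma adjusted p = 0.0077), and the median was -0.35, with 2 calls without Alb-Cre oil replicate 2. No gene of these 6 lists was called between the genotypes after CCl4 or oil, or in the interaction, but some alternatives gave calls. After CCl4, 1 female-biased gene was called under quantile normalization, without mitochondrial genes in the total, without Alb-Cre CCl4 replicate 3, and without replicate 2 or 3 of the Alb-Cre oil group. Also after CCl4, 4 male-biased genes and 1 omega oxidation partner were called without Alb-R3 CCl4 replicate 2, and 1 male-biased gene without Alb-Cre CCl4 replicate 1. After oil, 1 female-biased gene was called without Alb-Cre CCl4 replicate 3.

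The genes outside the Cyp4 family whose profile over the 12 libraries was most like that of the Cyp4a12 pair were Hsd3b5, Elovl3, Cyp7b1, Susd4 and Slc22a28. Their root mean square differences from it, between log2 profiles centred on their means, were 0.79, 0.88, 1.0003, 1.07 and 1.20, where the pair's own profile had a root mean square of 2.33. Hsd3b5, the closest of 10359 genes searched, had 121.6, 2231 and 196.0 normalized counts in Alb-R3 after CCl4 and 2494, 957.2 and 2982 in Alb-Cre after CCl4. After oil it had 5050, 8164 and 6095 in Alb-R3 and 6723, 7925 and 1834 in Alb-Cre. As for the Cyp4a12 pair, replicate 2 was the highest of the Alb-R3 CCl4 libraries and replicate 3 the lowest of the Alb-Cre oil libraries. Hsd3b5 was picked by its profile over these same libraries, so this likeness follows from the choice.

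For Cyp4a14 the closest were Acot3, Epb41l1, Vnn1, Ehhadh and Acot1, with differences of 0.70, 0.75, 0.78, 0.78 and 0.81 against its own 1.21. Ehhadh, a peroxisomal beta-oxidation enzyme, had 1958, 6110 and 7522 normalized counts in Alb-R3 after CCl4 and 8664, 3770 and 27030 in Alb-Cre after CCl4. After oil it had 9172, 9681 and 6688 in Alb-R3 and 15600, 11010 and 13060 in Alb-Cre. Alb-Cre CCl4 replicate 3 was again the highest of the 12, in a gene that was likewise picked by its profile over them. For Cyp4f14 the closest were Enpp3, Fzd7, Cyp2j5, Gpld1 and Nars2, with differences of 0.17, 0.19, 0.19, 0.20 and 0.20 against its own 0.63.

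**Figure D4:**
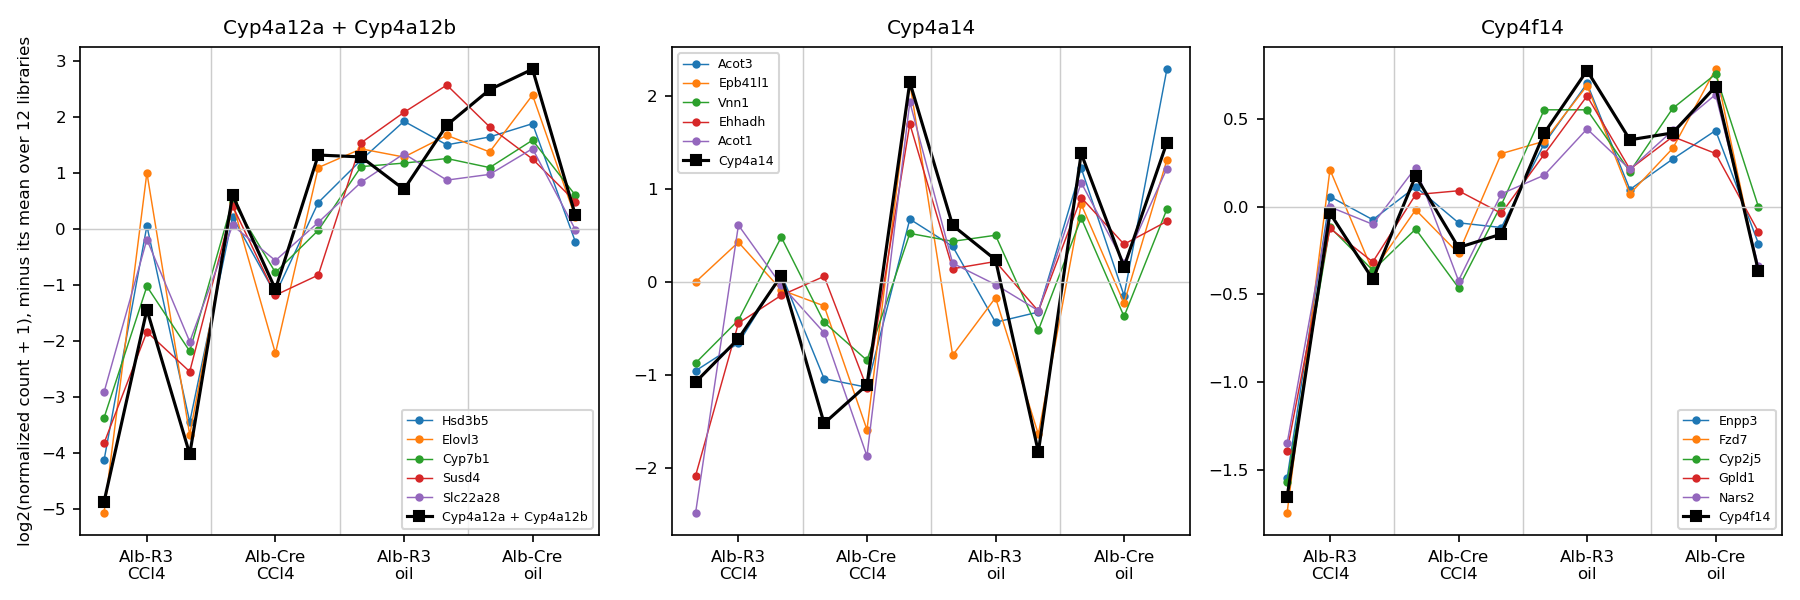
Log2(normalized count + 1) over the 12 libraries, each gene minus its own mean, for the Cyp4a12 pair, Cyp4a14 and Cyp4f14 (black squares) and the 5 genes outside the family with the nearest profiles (coloured points). The Cyp4a12 panel is lowest in Alb-R3 after CCl4 with replicate 2 raised, the Cyp4a14 panel peaks in Alb-Cre CCl4 replicate 3, and the Cyp4f14 panel dips in Alb-R3 CCl4 replicate 1.

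Markers of other liver cells moved with the Alb-R3 comparison. All 12 Kupffer cell and macrophage markers, 7 of 10 endothelial, 10 of 12 stellate cell and fibroblast and 3 of 6 tested cholangiocyte markers rose in Alb-R3 after CCl4, and 1 of 11 hepatocyte markers fell. In Alb-Cre the counts risen were 0, 0, 4 and 1, and 0 hepatocyte markers were called. Of all tested genes 10.9% were called higher and 6.92% lower in Alb-R3, and 3.46% and 0.988% in Alb-Cre. Between the genotypes none of the cell markers was called after CCl4 or oil. Still, after oil the median log2 difference of Alb-R3 from Alb-Cre was -1.03 for Kupffer cells and macrophages. It was -1.07 for endothelial cells, -1.14 for stellate cells and fibroblasts and 0.0011 for cholangiocytes. After CCl4 these medians were 1.51, 0.10, 0.31 and 0.59. The Kupffer, endothelial and stellate sums given below did not overlap between the oil groups. The Kupffer cell and macrophage list summed to 0.0099% to 0.047% of normalized counts in Alb-R3 after CCl4, 0.0060% to 0.0080% in Alb-Cre after CCl4, 0.0029% to 0.0037% in Alb-R3 after oil and 0.0045% to 0.0088% in Alb-Cre after oil.

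The other lists were as small a part of the libraries. Endothelial markers summed to 0.014% to 0.021% of normalized counts in Alb-R3 after CCl4, 0.013% to 0.021% in Alb-Cre after CCl4, 0.0060% to 0.0063% in Alb-R3 after oil and 0.011% to 0.014% in Alb-Cre after oil. For stellate cells and fibroblasts these ranges were 0.0039% to 0.014%, 0.0065% to 0.010%, 0.0017% to 0.0022% and 0.0041% to 0.0045%, in the same order of groups. For cholangiocytes they were 0.0020% to 0.018%, 0.0011% to 0.0031%, 0.00051% to 0.00067% and 0.00038% to 0.00050%. No marker was at 0 in all libraries, and 1 cholangiocyte marker stayed under 1 normalized count in each.

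Alb-R3 CCl4 replicate 1 held the highest Kupffer cell and cholangiocyte sums and the lowest hepatocyte sum, 6.2%, against 12.2% and 12.4% in the other libraries of its group. It also had the lowest endothelial sum of its group, 0.014%, against 0.019% and 0.021%. The same held for stellate cells and fibroblasts, 0.0039% against 0.011% and 0.014%, and for proliferation, 0.0086% against 0.035% and 0.044%. All 6 proliferation markers rose after CCl4 in both genotypes, beside 10.9% of all tested genes in Alb-R3 and 3.46% in Alb-Cre. The part of these cells, of cycling and of the mitochondrial share in the Cyp4 values was not tested. Without that library the log2 fold change of the summed Cyp4a12 pair in Alb-R3 after CCl4 was -4.02. Alb-R3 CCl4 replicates 2 and 3 also had Kupffer cell and macrophage sums, 0.0099% and 0.014%, above the 0.0029% to 0.0037% in Alb-R3 after oil. Leaving out replicate 1 was therefore no test of cell make-up. In such bulk samples, fewer hepatocytes and less RNA per hepatocyte cannot be told apart.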

How the data were processed

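RNA was sequenced from hepatocytes of 12 samples, isolated by Liberase perfusion, differential centrifugation and Percoll, per the labels' protocols. The authors deposited, per the file headers, each gene's normalized count and FPKM in every sample. The normalized count, a signal that the authors had scaled before they deposited it, is not in whole reads, so no count model was used. Tools named in the submitters' processing notes were kallisto 0.44.0 and edgeR, with GRCm38.p6 as the build, and their roles are not given in the sources used here. A quantifier that divides shared reads between copies can move single Cyp4a members while their sum holds.

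The 4 groups were fitted together in limma 3.58.1 (R 4.3.3) on log2(normalized count + 1), letting the prior variance follow the mean. Of the genes, 20244 reached a value of 1 in 3 or more samples and were tested. P-values were adjusted by Benjamini-Hochberg over these genes within each of 5 comparisons, with a threshold of 0.05. Fold changes carry the SE from limma, and on this scale those of low genes are understated. The fit was tested on simulated data.

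The labels do not say that the samples are separate animals, so the p-values describe spread among samples that may be technical. Replicates of each group differed beyond counting noise. The text names the 10 members and their sums, other Cyp4 genes with a mean of at least 10 in a group, up to 3 called genes per direction from each list, and the 5 genes (mean of at least 50) nearest in profile to the Cyp4a12 pair, Cyp4a14 and Cyp4f14. Members, lists and tests were chosen with earlier results of these data known. Sequences and 1-based coordinates come from GENCODE M21. Alternatives were other scalings, filters, pseudocounts and thresholds, the FPKM values, a replicate block, library weights, fits of 6 samples and leaving out each library.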

Additional observations from a re-analysis of the deposited data

How the results depend on the processing

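Of 1240 member values under the alternatives, 1175 kept their direction and their side of the threshold, 30 lost a call, 7 gained one, and the 28 that turned had not been called. Most of the 1240 belong to values that were never called, so this tally says little on how stable the calls were. Of the 30 lost calls, 16 were of Cyp4f13 in Alb-Cre after CCl4 and 11 of Cyp4f14 in Alb-R3 after CCl4, from 25 settings each. Cyp4a12b lost 2 between the genotypes after CCl4, and Cyp4a32 lost 1 in Alb-R3 after CCl4. The calls of Cyp4a12a, Cyp4a12b and Cyp4f13 in Alb-R3 after CCl4 held in all 25 settings, with adjusted p at most 0.037, 0.0053 and 0.0040. In Alb-R3 after CCl4 the count of members called was 5 and became 3 with no filter (Cyp4a12a, Cyp4a12b and Cyp4f13) and 7 with library weights, of which 2 were higher (Cyp4a31 and Cyp4b1). Without mitochondrial genes in the total it was 5, of which 1 was higher (Cyp4b1), and leaving out 1 library gave 4 to 5. In Alb-Cre after CCl4 the count of 1 became 0 under quantile normalization, without mitochondrial genes in the total, on FPKM, without the trend, with only the 6 samples compared and at a threshold of 0.01, and leaving out 1 library gave 0 to 1. Between the genotypes after CCl4 the count of 1 became 0 with no filter and with only the 6 samples, and leaving out 1 library gave 1 to 2. After oil the count of 0 became 1 (Cyp4b1) with library weights, and leaving out 1 library gave 0 to 1. The Cyp4a12 pair summed, between the genotypes after CCl4, ran from -4.73 to -3.02 when 1 library was left out. The cause of these changes was not tested.

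The following values turned, none of them called. In Alb-R3 after CCl4, Cyp4a14 was 0.055 under quantile normalization, 0.20 without mitochondrial genes in the total and 0.054 on FPKM. In Alb-Cre after CCl4, Cyp4b1 was -0.038 under quantile normalization, and Cyp4a32 was 0.0064 without mitochondrial genes in the total and 0.040 on FPKM. Rescaling without mitochondrial genes moved the median of all genes to 0.37 in Alb-R3 and 0.20 in Alb-Cre, and FPKM moved it to 0.23 and 0.22. When 1 library was left out, the range after CCl4 was -0.96 to 0.26 for Cyp4a14 in Alb-R3, -1.24 to 0.0012 for the summed Cyp4a10, Cyp4a31 and Cyp4a32 in Alb-R3, -0.52 to 0.13 for Cyp4a32 in Alb-Cre and -0.0095 to 0.28 for Cyp4b1 in Alb-Cre. Between the genotypes after CCl4 it was -1.06 to 0.78 for Cyp4a14 and -0.57 to 0.18 for Cyp4a31. After oil it was -0.90 to 0.16 for Cyp4a31, -0.027 to 0.50 for Cyp4f14 and -0.40 to 0.10 for Cyp4v3. In the interaction it was -0.86 to 1.30 for Cyp4a10, -0.42 to 0.64 for Cyp4a31 and -0.76 to 1.02 for that sum.

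With the replicate number as a block, the count in Alb-Cre after CCl4 was 0 and the other member counts did not change. Of the gene lists, the omega oxidation partners had 2 calls in Alb-R3 after CCl4 with the block, and the peroxisomal list had 0 in Alb-Cre, while between the genotypes 1 female-biased gene was called after CCl4 and 1 after oil. Deviations of same-numbered samples correlated between -0.19 and 0.20, with 3 of 18 pairs over 0.1. Alb-R3 CCl4 replicate 1 and Alb-Cre CCl4 replicate 2, of different numbers, reached 0.27. With 3 samples a group, these values cannot show whether same numbers mark pairs or a batch. Depth limits Cyp4a12b most, at 10.1 to 46.0 estimated reads in Alb-R3 after CCl4.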
